A study of Mus musculus with 9 samples.

Results

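The collagen chain genes encode the alpha chains from which every collagen molecule is assembled. Of the 41 chains listed, each named in full below, all were measured, out of 19938 genes with 1 symbol on the array. Each gene was read from the probe set that carries its symbol and no other, and none of the 41 had more than 1 such probe set. Expression was measured in mouse embryonic fibroblasts (MEFs), which are cultured connective tissue cells, on Affymetrix Gene ST 1.0 chips, with 9 arrays divided equally over 3 genotypes. The comparisons ask how mRNAs of matrix proteins differed in cells that lack thiol oxidases of the endoplasmic reticulum (ER), the compartment in which collagen is folded.

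WT MEFs are labelled wild type. DM MEFs are labelled as double mutants of ERO1alpha and ERO1beta, and TM MEFs carry in addition a PRDX4 knockout. ERO1 enzymes and the peroxiredoxin PRDX4 each introduce disulfide bonds into proteins in the ER. All 9 samples are labelled C57B/L6 and as T antigen-transformed MEFs grown in DMEM with non-essential amino acids, antibiotics and Glutamax, with no ascorbate named in the labels. The study's methods describe gene-trap alleles of both Ero1 genes and a null allele of the X-linked Prdx4, and MEFs used both as primary and as transformed cultures. They also describe a control for MEF work that is heterozygous for the Ero1alpha allele and homozygous for the Ero1beta allele, whereas the arrays' labels say wild type, so which of these the WT arrays hold was not settled here. Whether arrays of 1 genotype stem from separate embryos or cultures is not stated, so the p-values measure the spread between arrays, which may be technical.

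Collagen chains wind in threes into a triple helix of repeated Gly-X-Y units, and in many collagens different chains must pair to form the molecule. In the ER, prolyl and lysyl residues are hydroxylated by enzymes that need ascorbate, disulfide bonds join the chains at their carboxy-terminal propeptides, and the helix zips up from there. Fibrillar collagens give skin, bone and tendon their strength, type IV collagen builds the sheet of basement membranes, type VI forms beaded microfibrils around cells, and the FACIT collagens decorate fibril surfaces.

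Levels below are log2 RMA values, given for each array or as the range or mean of the 3 arrays of a genotype, and a change is a difference between genotype means on the log2 scale with its standard error. Calls of higher or lower required both a limma adjusted p under 0.05 and more than a 1.5-fold change. On the arrays, Ero1a was at 11.84 to 11.88 in WT, 9.41 to 9.52 in DM and 8.98 to 9.12 in TM MEFs, and Prdx4 was at 10.44 to 10.66, 10.45 to 10.88 and 5.96 to 6.75. These levels follow the labels. Ero1b, which encodes ERO1beta, was at 7.52 to 7.72, 7.68 to 7.72 and 7.86 to 8.02 and was not called in any comparison, so it checks no label. Vim, the mesenchymal filament gene that fibroblasts express strongly, had means of 14.18, 14.16 and 14.15, whereas the fibroblast markers Dpt (5.80, 5.97 and 6.03) and Lum (4.80, 4.91 and 6.86) were low in WT and DM MEFs. The medians of the 9 arrays were 7.62 to 7.72.

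Some values stand apart in DM arrays and are given here because they touch the results that follow. Xist, which coats and silences an X chromosome, had means of 5.70 in WT, 12.56 in DM and 5.72 in TM MEFs, and on the Y chromosome Kdm5d, Uty and Eif2s3y fell in DM MEFs by 1.49, 1.74 and 2.01. The mean level of 7 mesothelial markers was 7.95 to 7.99 in WT, 11.10 to 11.22 in DM and 7.07 to 7.20 in TM MEFs. Of the 7, 5 rose in DM MEFs, among them Upk1b by 5.57 and Gpm6a by 5.32, while Msln fell by 1.43 and Krt19 was at -0.40. In TM against WT, Msln (-3.61) and Krt19 (-1.81) were called lower and the other 5 were not called. The mean level of 9 epithelial markers was 7.29 to 7.31, 8.10 to 8.20 and 7.08 to 7.23. Of the 9, 4 rose in DM against WT, among them Dsp at 2.75 and Krt18 at 2.69. The other 5 were not called, and of these Epcam was at -0.34. In TM against WT, Dsp was at -0.98 and was the 1 marker of this list that was called. The fibroblast list of 10 markers averaged 9.39 to 9.43, 9.17 and 10.14 to 10.20. Of these, 2 rose and 3 fell in DM MEFs, and 5 rose and 1 fell in TM MEFs, with S100a4 lower in both (-2.28 and -1.46) and Thy1 at -0.25 in DM and 2.93 in TM MEFs. Of 7 smooth muscle markers, 2 fell in DM MEFs (Tagln by 1.06) and 3 rose in TM MEFs (Cnn1 at 3.47), and no marker of endothelium (9), Schwann cells (4), skeletal muscle (6) or macrophages (5) was called by limma in any comparison, also at an unadjusted p under 0.05 with the fold limit kept. Over all genes 5.28% were called higher and 5.67% lower in DM than in WT MEFs, and 5.59% and 3.56% in TM than in WT MEFs. The part of these markers in the collagen results was not tested, and in bulk RNA fewer cells of a type and less RNA per cell cannot be told apart. The Xist, Y-linked and mesothelial differences are shared by all DM arrays, so for changes in DM MEFs they cannot be told apart from genotype.

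Promoters are shown for Col1a2, which was the chain with the largest fall in DM MEFs, and for Col4a5 and Col4a6, whose rises in DM MEFs were the largest. Each line holds the 250 bases before the RefSeq start of the gene, on the gene's own strand from 5′ to 3′, in build GRCm38.p6 (the array files name no build). Col1a2 is at chr6:4505368-4505617 on the plus strand, Col4a5 at chrX:141475169-141475418 on the plus strand and Col4a6 at chrX:141474077-141474326 on the minus strand. Capitals mark the CCAAT box (CCAAT) and the GC box (GGGCGG), each searched on both strands, so that a GC box on the other strand reads CCGCCC.
Col1a2: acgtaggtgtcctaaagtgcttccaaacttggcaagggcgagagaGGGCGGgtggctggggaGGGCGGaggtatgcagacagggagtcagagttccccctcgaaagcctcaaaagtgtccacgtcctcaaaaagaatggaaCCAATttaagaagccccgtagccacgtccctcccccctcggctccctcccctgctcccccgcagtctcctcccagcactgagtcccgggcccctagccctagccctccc
Col4a5: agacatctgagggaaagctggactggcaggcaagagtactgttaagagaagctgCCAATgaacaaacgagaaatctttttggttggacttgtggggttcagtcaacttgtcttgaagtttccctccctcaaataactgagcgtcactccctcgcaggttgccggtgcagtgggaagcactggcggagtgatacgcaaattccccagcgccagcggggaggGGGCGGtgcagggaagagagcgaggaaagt
Col4a6: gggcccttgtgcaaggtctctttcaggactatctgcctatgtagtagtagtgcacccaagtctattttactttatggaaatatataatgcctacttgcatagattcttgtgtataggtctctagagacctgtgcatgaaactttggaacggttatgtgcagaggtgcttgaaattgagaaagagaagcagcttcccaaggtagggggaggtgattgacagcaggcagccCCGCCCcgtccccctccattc

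The Col4a5 and Col4a6 starts lie 1343 bases apart and point away from each other, which is the head-to-head arrangement known for the paired type IV collagen genes. The Col1a2 window held 1 CCAAT box and 2 GC boxes, that of Col4a5 held 1 of each, and that of Col4a6 held 1 GC box and 0 CCAAT boxes. Over 32851 promoter windows of the same length, 33.85% held the CCAAT box, 32.74% the GC box and 12.37% the motif TATAAA. Windows were given for 32 of the 41 chain genes. Of these 32 genes, 12 held a CCAAT box (37.5%), 18 a GC box (56.25%) and 5 TATAAA (15.62%) in any of their windows. These shares are by gene, whereas those over all promoters are by window. By window, 12 of the 35 windows of these genes held a CCAAT box, 19 a GC box and 5 TATAAA. The motifs are letter matches and show no binding.

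In DM MEFs 5 of the 41 chains rose, namely Col4a6, Col4a5, Col11a1, Col15a1 and Col12a1, and 3 fell, namely Col1a2, Col18a1 and Col6a3. Over all genes 5.28% were called higher and 5.67% lower in DM than in WT MEFs. In TM MEFs 2 chains rose, Col12a1 and Col10a1, and 2 fell, Col18a1 and Col5a3, where over all genes 5.59% were higher and 3.56% lower. Between the mutants, 4 chains were higher in TM than in DM MEFs (Col1a2, Col8a1, Col6a3 and Col10a1) and 2 were lower (Col4a6 and Col4a5), against 4.68% and 3.61% of all genes. The comparisons with WT share the WT arrays. The median change of the 41 chains was 0.073 in DM and -0.020 in TM MEFs against WT and -0.097 between TM and DM MEFs, beside 0.025, -0.029 and -0.046 for all genes.

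Of the 41 chains, 11 were called in at least 1 of the 3 comparisons and 30 in none. The share of all genes called in at least 1 comparison was not computed here, so the 11 are set beside no background. Col12a1 rose and Col18a1 fell in both mutants. Another 4 chains rose and 2 fell in DM MEFs and were not called in TM MEFs against WT, while 1 rose and 1 fell in TM MEFs and were not called in DM MEFs. The fold limit was the stricter criterion, as 12 further chains in each comparison with WT, and 11 between the mutants, had an adjusted p under 0.05 with a smaller change. With each array centred on its median, 4 chains were higher and 6 lower in DM MEFs, because Col5a3, Col6a1 and Col8a1 also passed and Col12a1, at 0.55, did not. Over all genes this centring gave 908 higher and 1427 lower. With cyclic loess, 2 were higher and 1 lower in TM MEFs, where over all genes 1217 were higher and 599 lower.

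**Figure D1:**
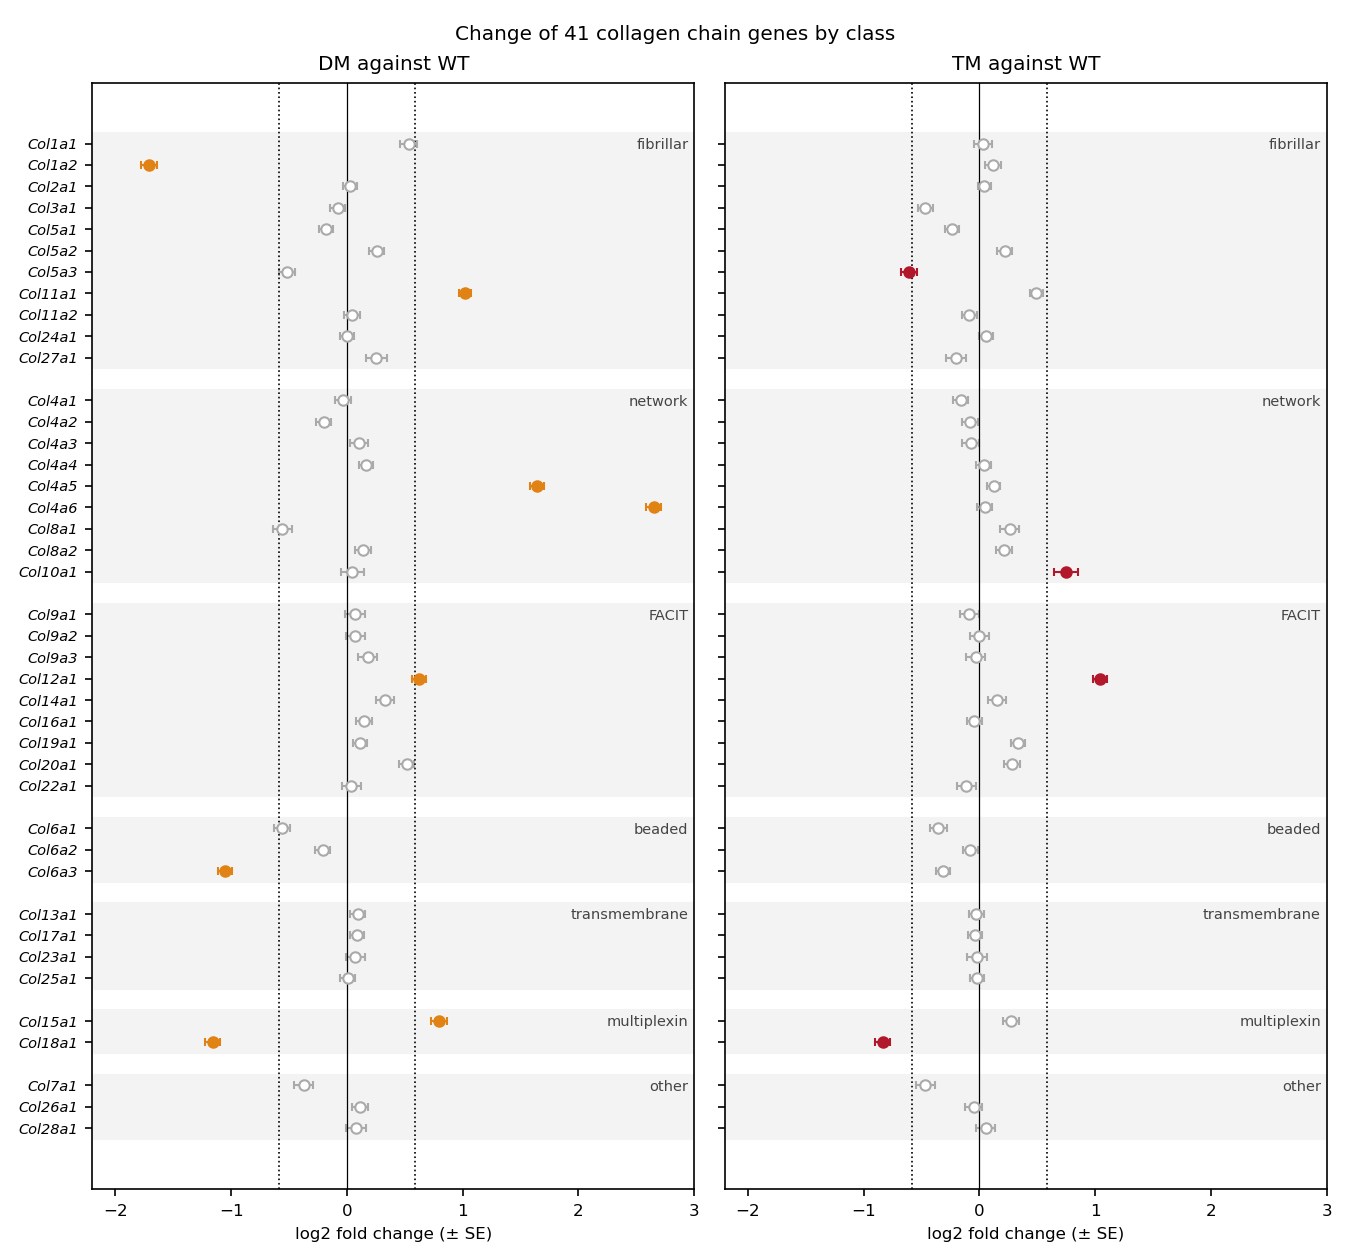
Log2 fold change against WT (x axis, ± SE from limma) of the 41 collagen chain genes (y axis, by class) in DM (left) and TM MEFs (right), with filled points for called genes and dotted lines at 1.5-fold. The points of Col4a6 (2.65), Col4a5 (1.64) and Col1a2 (-1.71) stand farthest from 0 in DM MEFs and lie at 0.04, 0.12 and 0.12 in TM MEFs.

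Among the 11 fibrillar chains, those of type I collagen moved apart in DM MEFs. Type I collagen is the main collagen of skin and bone and is a trimer of a pair of alpha1 chains, from Col1a1, with an alpha2 chain, from Col1a2. The level of Col1a2 was 11.70, 11.73 and 11.82 on the WT arrays, 10.03, 10.11 and 9.98 on the DM arrays and 11.95, 11.92 and 11.73 on the TM arrays. All DM arrays were below the lowest WT and TM arrays, and the TM arrays overlapped those of WT. Col1a2 was 3.27-fold lower in DM than in WT MEFs (log2 -1.71, SE 0.0703, adjusted p = 1.1e-09 from limma) and 3.55-fold higher in TM than in DM MEFs (log2 1.83, SE 0.0703, adjusted p = 7.44e-10). Against WT its change in TM MEFs was 0.12 (adjusted p = 0.259).

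Col1a1 did not share this fall. Its level was 11.78, 11.81 and 11.93 in WT, 12.37, 12.39 and 12.35 in DM and 11.94, 11.97 and 11.70 in TM MEFs. All 3 DM arrays were above every other array, at a change of 0.53 against WT (SE 0.0751, adjusted p = 0.000105) that was 1.45-fold and so under the limit. It passed with quantile normalization (0.62) and with cyclic loess (0.63). In TM MEFs it was at 0.03.

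Col11a1 encodes a chain of type XI collagen, which nucleates fibrils and is best known from cartilage. Its level was 8.19, 8.16 and 8.16 in WT, 9.19, 9.25 and 9.14 in DM and 8.66 on all 3 TM arrays. The 3 genotypes did not overlap, with TM between the others. It rose 2.03-fold in DM MEFs (log2 1.02, SE 0.0531, adjusted p = 1.06e-08), and in TM MEFs its change of 0.49 was under the fold limit. The 3 TM values are identical, so their spread is understated. Its partners did not move with it: Col2a1, the chain of cartilage collagen, was at 8.73, 8.67 and 8.66 in WT, 8.73, 8.72 and 8.68 in DM and 8.72, 8.80 and 8.66 in TM MEFs. Col11a2, the other type XI chain measured, was at 8.18, 8.12 and 8.12 in WT, 8.27, 8.21 and 8.08 in DM and 7.95, 8.12 and 8.09 in TM MEFs. Neither was called, and their arrays overlapped or met between genotypes. Of 11 cartilage markers, Sox5 rose (1.20) and Sox9 fell by 1.65 in DM MEFs, and the other 9 were not called. In TM against WT, Sox5 rose (0.83) and the other 10 were not called. Acan, which encodes the main cartilage proteoglycan, had means of 6.58, 6.63 and 6.58, under the median gene at 8.10.

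Col5a3, a less common chain of the type V collagen that sits inside type I fibrils, was at 8.45, 8.53 and 8.42 in WT, 7.995, 7.995 and 7.86 in DM and 7.76, 7.97 and 7.85 in TM MEFs. Every mutant array was below every WT array. The change was -0.61 in TM MEFs (SE 0.0681, adjusted p = 1.63e-05), which was called, and -0.52 in DM MEFs, which was not. The TM call rests on single arrays, since without WT replicate 2 the change was -0.58 and without TM replicate 1 it was -0.56, both under 1.5-fold. It was also lost with cyclic loess and with array weights, at -0.58 in both. The main chain of the type, Col5a1, was at 9.54, 9.54 and 9.60 in WT, 9.40, 9.40 and 9.32 in DM and 9.36, 9.37 and 9.23 in TM MEFs, with changes of -0.18 and -0.24, and Col5a2 was at 0.26 and 0.22. None of these was called.

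The other fibrillar chains were not called. Col3a1, whose type III collagen accompanies type I in skin and vessels, was at -0.08 in DM and -0.47 in TM MEFs. Its 3 TM arrays, at 9.26 to 9.40, were below all others (9.67 to 9.85). Col24a1 was at 0.00 and 0.06, and Col27a1 was at 0.25 and -0.20. Over the 11 fibrillar chains the median change was 0.026 in DM and 0.032 in TM MEFs.

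In the network-forming class, the changes in DM MEFs lay in a pair of neighbouring genes. Col4a5 and Col4a6 encode chains of the type IV collagen of particular basement membranes, whereas Col4a1 and Col4a2 encode the chains found in nearly all of them. Col4a6 was at 6.83, 6.81 and 6.79 in WT, 9.44, 9.52 and 9.43 in DM and 6.93, 6.90 and 6.73 in TM MEFs. Col4a5 was at 8.22, 8.14 and 8.16 in WT, 9.80, 9.79 and 9.87 in DM and 8.35, 8.32 and 8.23 in TM MEFs. For both genes the DM arrays were far above all others, while TM and WT arrays overlapped or lay side by side. Col4a6 was 6.28-fold higher in DM than in WT MEFs (log2 2.65, SE 0.0636, adjusted p = 6.41e-12), the largest change of any chain, and Col4a5 3.12-fold (log2 1.64, SE 0.0581, adjusted p = 2.7e-10). In TM against DM MEFs they were lower by 6.09-fold and 2.86-fold, and against WT they were at 0.04 and 0.12.

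Both genes are X-linked, and the DM arrays differ in Xist as given above. The median change of the 739 X-linked genes was 0.083 in DM MEFs, and that of the 300 above the median gene was 0.13. Of the 739, 79 were called higher and 24 lower in DM than in WT MEFs, and of the 300, 48 and 21. For the 19106 autosomal genes the median change was 0.022, with 973 called higher and 1103 lower. In TM against WT, 64 of the 739 X-linked genes were called higher and 24 lower, with a median change of -0.028. Of the autosomal genes, 1051 were higher and 685 lower in that comparison. Of the 7 mesothelial markers, 5 were highest in DM MEFs, while Msln and Krt19 were highest in WT MEFs. The part of the Xist difference or of the mesothelial markers in the rise of Col4a5 and Col4a6 was not tested. Neither can be told apart here from the DM genotype.

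The other type IV chains stayed within the fold limit. Col4a1 was at -0.03 in DM and -0.16 in TM MEFs, Col4a2 at -0.20 and -0.08, Col4a3 at 0.10 and -0.07, and Col4a4 at 0.17 and 0.04. The level of Col4a4, which joins Col4a3 and Col4a5 in a trimer, was 7.47, 7.34 and 7.47 in WT, 7.66, 7.62 and 7.51 in DM and 7.45, 7.47 and 7.47 in TM MEFs. Its DM arrays were above the others by less than the fold limit.

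Col8a1 encodes a chain of type VIII collagen, a short network collagen of vessel walls and the cornea. Its level was 11.48, 11.43 and 11.49 in WT, 10.80, 11.12 and 10.80 in DM and 11.69, 11.74 and 11.75 in TM MEFs. The genotypes did not overlap, with DM lowest and TM highest. It was 1.76-fold higher in TM than in DM MEFs (log2 0.82, SE 0.0811, adjusted p = 6.11e-06), whereas against WT its changes of -0.56 and 0.26 were under the fold limit. Without DM replicate 2, the highest of the DM arrays, the change in DM MEFs was -0.67 and was called, as it was with median centring (-0.63) and array weights (-0.59). Its partner Col8a2 was at 7.29, 7.39 and 7.46 in WT, 7.54, 7.59 and 7.43 in DM and 7.54, 7.70 and 7.54 in TM MEFs and was not called.

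Col10a1, the collagen of hypertrophic cartilage, was the chain called higher in TM MEFs against both other genotypes. It was at 7.06, 7.15 and 7.003 in WT, 7.25, 7.16 and 6.95 in DM and 7.74, 7.66 and 8.05 in TM MEFs. WT and DM overlapped and every TM array was above them, at 0.75 against WT (SE 0.101, adjusted p = 8.8e-05) and 0.70 against DM MEFs (adjusted p = 0.000164). Without TM replicate 3, its highest array, the difference from DM MEFs was 0.58 and was not called. All its levels were under the median gene, and of the 6 bone markers measured Alpl rose in DM MEFs (0.64) and the other 5 were not called.

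**Figure D2:**
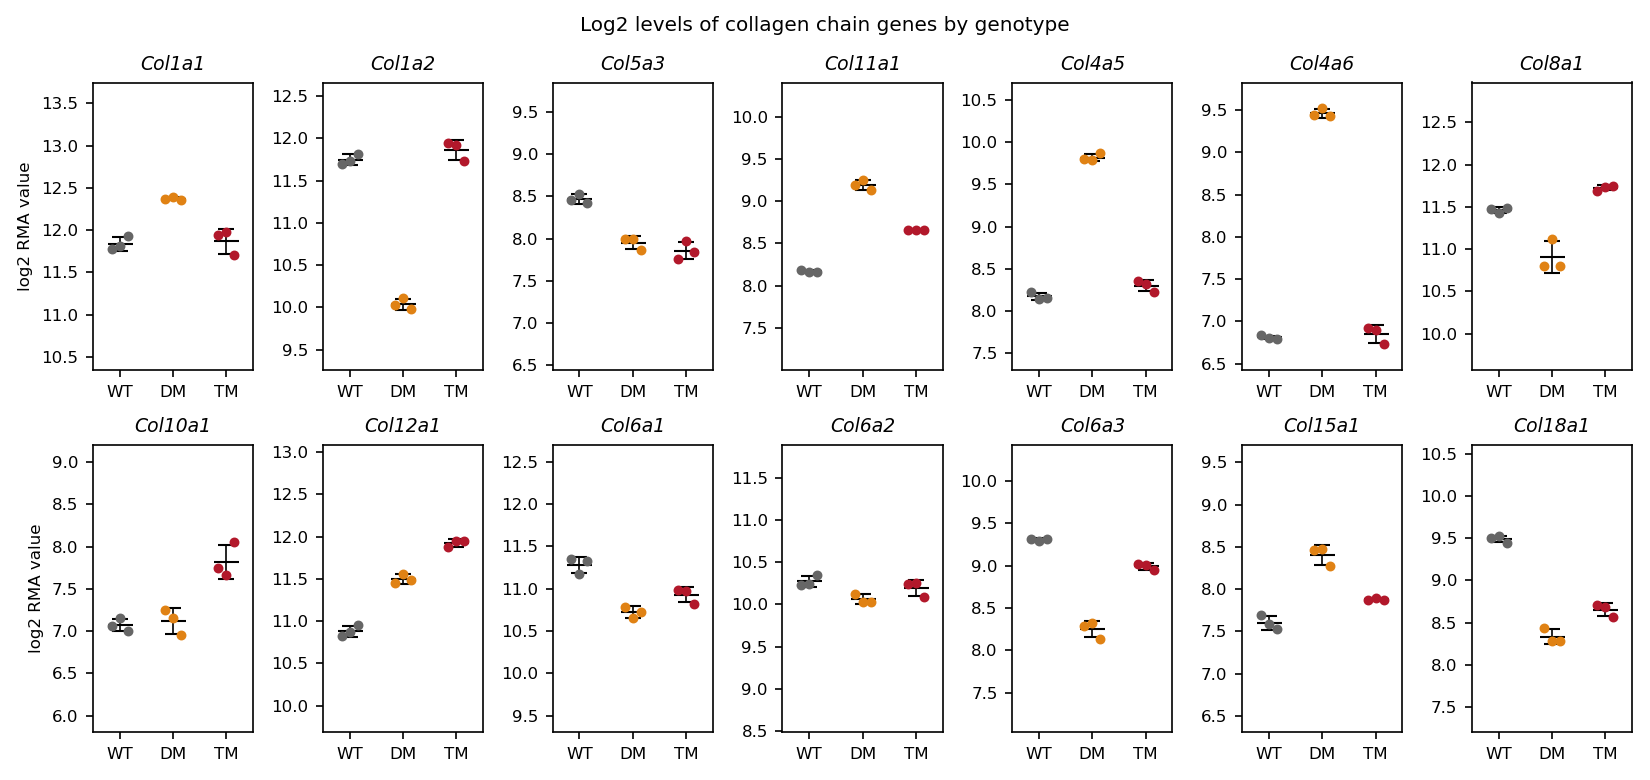
Log2 RMA value on each array (points) of 14 collagen chain genes in WT (grey), DM (orange) and TM MEFs (red), with the mean and SD of 3 arrays as black lines; each panel spans the same number of log2 units. Col1a2 and Col6a3 dip and Col4a5 and Col4a6 peak in DM MEFs, and Col12a1 steps up from 10.88 in WT to 11.50 in DM and 11.92 in TM MEFs.

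Col12a1 was the one FACIT chain that was called. It encodes type XII collagen, which coats type I fibrils in dense connective tissue. The level was 10.82, 10.87 and 10.95 in WT, 11.45, 11.56 and 11.49 in DM and 11.87, 11.95 and 11.95 in TM MEFs. The genotypes did not overlap and stood in the order WT, DM, TM. The rise was 1.54-fold in DM (log2 0.62, SE 0.0592, adjusted p = 3.38e-06) and 2.06-fold in TM MEFs (log2 1.04, SE 0.0592, adjusted p = 2.79e-08), and the difference between the mutants, 0.42, was under the fold limit. With median centring the DM change was 0.55 and was not called.

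The other 8 FACIT chains were not called in any comparison. The median change over the 9 FACIT chains was 0.15 in DM and -0.0028 in TM MEFs. Col20a1 came nearest to a call, at 0.51 in DM (adjusted p = 4.49e-05) and 0.28 in TM MEFs, with 7.62 to 7.82 on WT, 8.18 to 8.32 on DM and 7.97 to 8.05 on TM arrays, which do not overlap. Col14a1 was at 0.33 and 0.15, Col19a1 at 0.11 and 0.33, Col16a1 at 0.15 and -0.04 and Col22a1 at 0.04 and -0.11. The chains of the cartilage collagen IX, Col9a1, Col9a2 and Col9a3, were at 0.07, 0.07 and 0.18 in DM and -0.09, 0.00 and -0.03 in TM MEFs.

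The 3 listed chains of type VI collagen (Col6a1, Col6a2 and Col6a3) had lower means in both mutants than in WT MEFs. Of these, 1 was called. This collagen forms beaded microfibrils from a trimer of 1 chain each, and Col6a3 encodes the longest of the classical chains. Col6a3 was at 9.32, 9.29 and 9.32 in WT, 8.29, 8.32 and 8.14 in DM and 9.02, 9.01 and 8.95 in TM MEFs. The genotypes did not overlap. It was 2.08-fold lower in DM than in WT MEFs (log2 -1.06, SE 0.0607, adjusted p = 2.78e-08), 1.67-fold higher in TM than in DM MEFs (log2 0.74, adjusted p = 1.06e-06) and at -0.32 in TM against WT.

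Col6a1 was at 11.35, 11.17 and 11.32 in WT, 10.79, 10.65 and 10.73 in DM and 10.99, 10.97 and 10.82 in TM MEFs, again without overlap. Its change was -0.56 in DM (SE 0.0705, adjusted p = 3.92e-05), or 1.48-fold, and -0.35 in TM MEFs. It was called in DM MEFs without WT replicate 2 (-0.62), without DM replicate 1 (-0.60) and with median centring (-0.63). Col6a2 was at 10.23, 10.24 and 10.34 in WT, 10.13, 10.03 and 10.03 in DM and 10.24, 10.25 and 10.09 in TM MEFs, at -0.21 and -0.08. The median change of the beaded class was -0.56 in DM and -0.32 in TM MEFs.

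The multiplexins are basement membrane collagens that carry sugar chains, and their chains moved in opposite directions in DM MEFs. Col18a1, which releases the fragment endostatin, was at 9.50, 9.52 and 9.45 in WT, 8.44, 8.28 and 8.28 in DM and 8.70, 8.69 and 8.57 in TM MEFs. Every mutant array was below every WT array, and DM was below TM. It fell 2.23-fold in DM (log2 -1.16, SE 0.0642, adjusted p = 1.98e-08) and 1.79-fold in TM MEFs (log2 -0.84, SE 0.0642, adjusted p = 4.95e-07).

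Col15a1 was at 7.69, 7.59 and 7.53 in WT, 8.46, 8.48 and 8.27 in DM and 7.87, 7.90 and 7.87 in TM MEFs, with no overlap. Its rise in DM MEFs was 1.74-fold (log2 0.80, SE 0.0685, adjusted p = 1.28e-06), and in TM MEFs its change was 0.28. Between TM and DM MEFs it was at -0.52 and was called at -0.59 without DM replicate 3.

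No transmembrane chain was called. Col13a1, Col17a1, Col23a1 and Col25a1, which span the plasma membrane, lay between 0.0048 and 0.091 in DM and between -0.041 and -0.018 in TM MEFs, and 0 of 4 passed at an unadjusted p under 0.05 with the fold limit kept. Col25a1 was at 7.52 on all 3 WT arrays. The chains outside these classes were also not called. Col7a1, the anchoring fibril collagen of skin, was at -0.37 and -0.47 in DM and TM MEFs, and its mutant arrays (8.21 to 8.51) were all below those of WT (8.70 to 8.84). Col26a1 was at 0.11 and -0.05, and Col28a1 was at 0.08 and 0.05.

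Because many collagens need different chains in a fixed ratio, the difference in log2 level between chains that share a trimer was followed from array to array. Probe sets differ in brightness, so the difference itself is not a ratio of chains, and its shift between genotypes is what was compared. For 15 pairs the 3 genotypes were compared at once with an exact permutation test over the 1680 assignments of 9 arrays to them. Its statistic was the spread of the genotype means, and its smallest p is 0.00357. The DM and TM shifts given for a pair have no p of their own. After Benjamini-Hochberg adjustment over the 15 pairs, 12 passed at 0.05. The share of pairs of other genes that would pass was not computed here, so the 12 are set beside no background. Members were chosen with their changes known, so these p-values describe arrays and are no independent evidence for a pair.

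The largest shift was in type I collagen. The difference Col1a1 minus Col1a2 was 0.079, 0.078 and 0.11 on the WT arrays, 2.33, 2.29 and 2.38 on the DM arrays and -0.0085, 0.050 and -0.028 on the TM arrays. It shifted by 2.24 in DM MEFs (SE 0.030) and by -0.085 in TM MEFs (SE 0.030), with an adjusted exact permutation p of 0.00765. Col4a4 minus Col4a5 shifted by -1.47 and Col4a5 minus Col4a6 by -1.01 (SE 0.048) in DM MEFs, as Col4a6 rose by more than Col4a5. In TM MEFs these shifts were -0.088 and 0.079.

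Of the pairs with Col11a1, its difference from Col11a2 shifted by 0.98 in DM and 0.58 in TM MEFs, that from Col2a1 by 0.99 and 0.45, and Col5a1 minus Col11a1 by -1.20 and -0.73. Within type V, Col5a1 minus Col5a2 shifted by -0.44 in DM and -0.46 in TM MEFs, and Col5a1 minus Col5a3 by 0.34 and 0.37. Within type V the sign of the shift was the same in both mutants. Col6a1 minus Col6a3 shifted by 0.50 in DM and -0.039 in TM MEFs, Col6a1 minus Col6a2 by -0.35 and -0.28, and Col8a1 minus Col8a2 by -0.70 and 0.049. The ubiquitous type IV chains passed with small shifts, as Col4a1 minus Col4a2 moved by 0.17 and -0.080.

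The remaining 3 pairs did not pass. Their adjusted exact permutation p was 0.295 for Col4a3 with Col4a4, 0.404 for Col9a1 with Col9a2 and 0.0618 for Col9a2 with Col9a3, whose shifts in DM MEFs were -0.064, -0.0055 and -0.11. The last of these passed without DM replicate 3 (adjusted p = 0.0223, exact permutation).

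**Figure D3:**
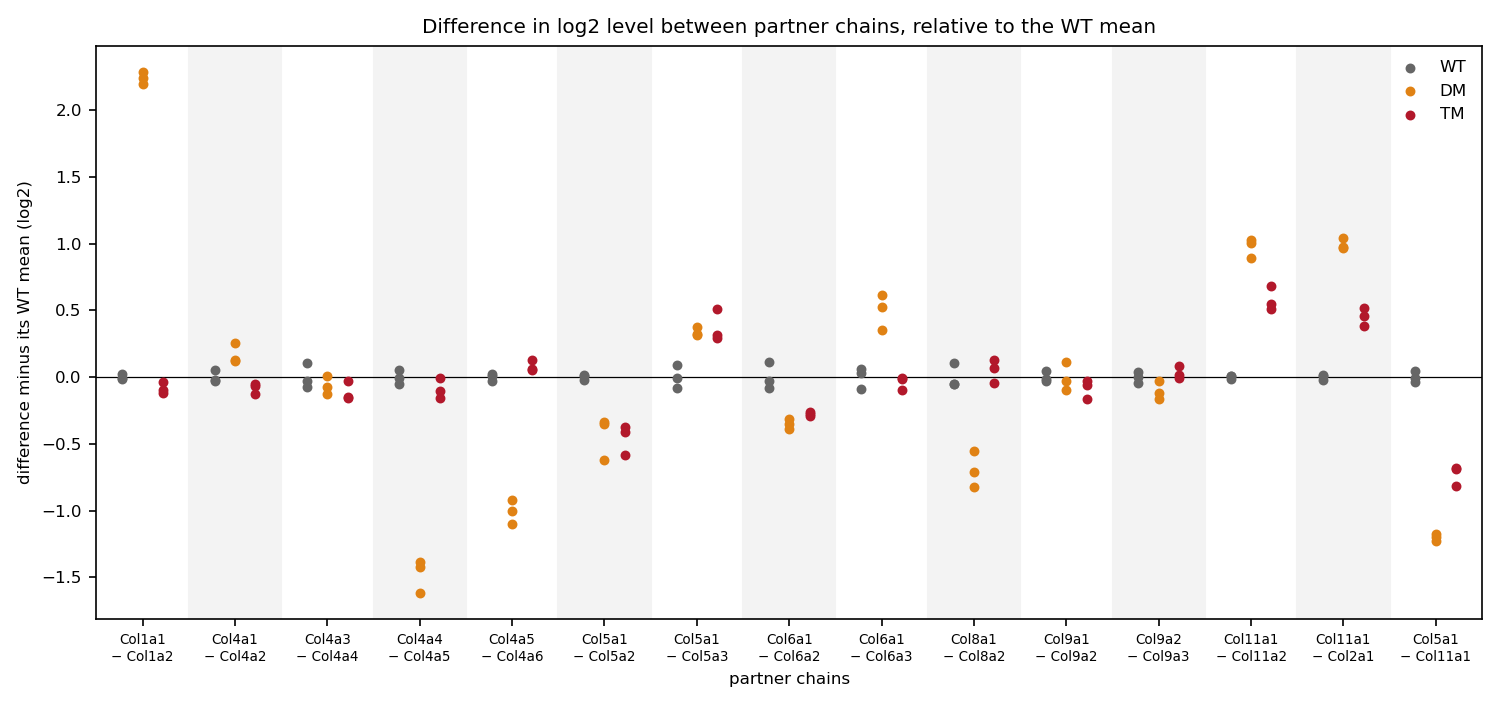
Difference in log2 level between chains that share a trimer (x axis, 15 pairs), relative to its mean in WT (y axis, log2), with a point for each array in WT (grey), DM (orange) and TM MEFs (red). The DM points of Col1a1 minus Col1a2 lie near 2.24 while those of WT and TM lie near 0, and the Col11a1 pairs are shifted in both mutants.

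Of 43 genes that modify, fold, cleave, crosslink or bind collagen, 40 were measured, and Fkbp10, Adamts2 and Loxl2 were not matched to a probe set of their own. In DM MEFs 5 of the 40 rose and 5 fell, in TM MEFs 6 rose and 3 fell, and 7 were higher and 4 lower in TM than in DM MEFs. Over all genes the shares were 5.28% and 5.67%, 5.59% and 3.56%, and 4.68% and 3.61%. The median change of the 40 genes was 0.0045 in DM and 0.028 in TM MEFs. Genes of folding and export in the ER were not called in any comparison, with 0 of 6 higher or lower by limma, also at an unadjusted p under 0.05 with the fold limit kept. The largest change among them was in Sec23a, a coat protein of the vesicles that leave the ER, at 0.58 in DM MEFs (adjusted p = 2.90e-06), just under 1.5-fold, and 0.44 in TM MEFs, and Sparc, a collagen-binding matrix protein, was at 0.37 and 0.16. Serpinh1, the collagen chaperone HSP47, was at -0.01 and 0.01, and Mia3, which loads procollagen into carriers, was at 0.01 and -0.03.

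Of 10 genes of prolyl hydroxylation, 1 rose in DM MEFs (5.28% of all genes) and 1 rose and 1 fell in TM MEFs (5.59% and 3.56% of all genes). P4ha3, a catalytic subunit of prolyl 4-hydroxylase, was the gene that rose, by 3.38 in DM (SE 0.124) and 3.04 in TM MEFs. The other catalytic subunit genes P4ha1 and P4ha2 were at 0.08 and -0.26 in DM and -0.40 and -0.33 in TM MEFs and were not called. P3h2, a prolyl 3-hydroxylase, fell in TM MEFs (-0.74), and its paralog P3h3 was at -0.46 in DM and 0.57 in TM MEFs and was higher in TM than in DM MEFs (1.03). Of 5 genes of lysyl hydroxylation and glycosylation, Plod2, whose product hydroxylates the telopeptide lysines used for crosslinks, fell in TM MEFs (-0.65) and was at 0.15 in DM MEFs.

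Among genes that act outside the cell, 1 of 4 crosslinking genes rose and 1 fell in DM MEFs (5.28% and 5.67% of all genes), and 2 rose in TM MEFs (5.59% of all genes). The crosslinking enzyme Lox was at 11.97, 12.03 and 12.08 in WT, 13.11, 12.98 and 13.16 in DM and 13.42, 13.42 and 13.38 in TM MEFs, rising by 1.06 and 1.38. Loxl1 was at 11.64, 11.56 and 11.71 in WT, 9.92, 10.02 and 9.91 in DM and 11.57, 11.53 and 11.48 in TM MEFs. Loxl1 thus fell in DM MEFs (-1.68, adjusted p = 3.56e-10) and was at -0.11 in TM MEFs. Loxl3 rose in TM MEFs (0.78) and was at -0.23 in DM MEFs.

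For propeptide cleavage, Tll1, a proteinase of the BMP1 family, fell by 1.52 in DM MEFs and rose by 2.48 in TM MEFs. Pcolce2, an enhancer of that cleavage, fell in both, at -0.90 and -1.74. Adamts3, which removes amino-terminal propeptides, rose in DM MEFs (1.12) and was at 0.43 in TM MEFs, and Adamts14 was lower in TM than in DM MEFs (-0.80). Bmp1 itself was at -0.17 and -0.41 and was not called.

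Of 8 genes of binding and uptake, the integrin chains Itga1 (2.30 and 2.89) and Itga11 (1.60 and 1.65), which bind collagen together with the product of Itgb1, rose in both mutants. Itga2, another collagen-binding integrin chain, fell in DM MEFs (-0.77) and was at 0.16 in TM MEFs. The collagen receptor kinase Ddr2 also fell in DM MEFs (-0.59) and was at 0.04 in TM MEFs. Itgb1 was at -0.35 and 0.13 and was not called.

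**Figure D4:**
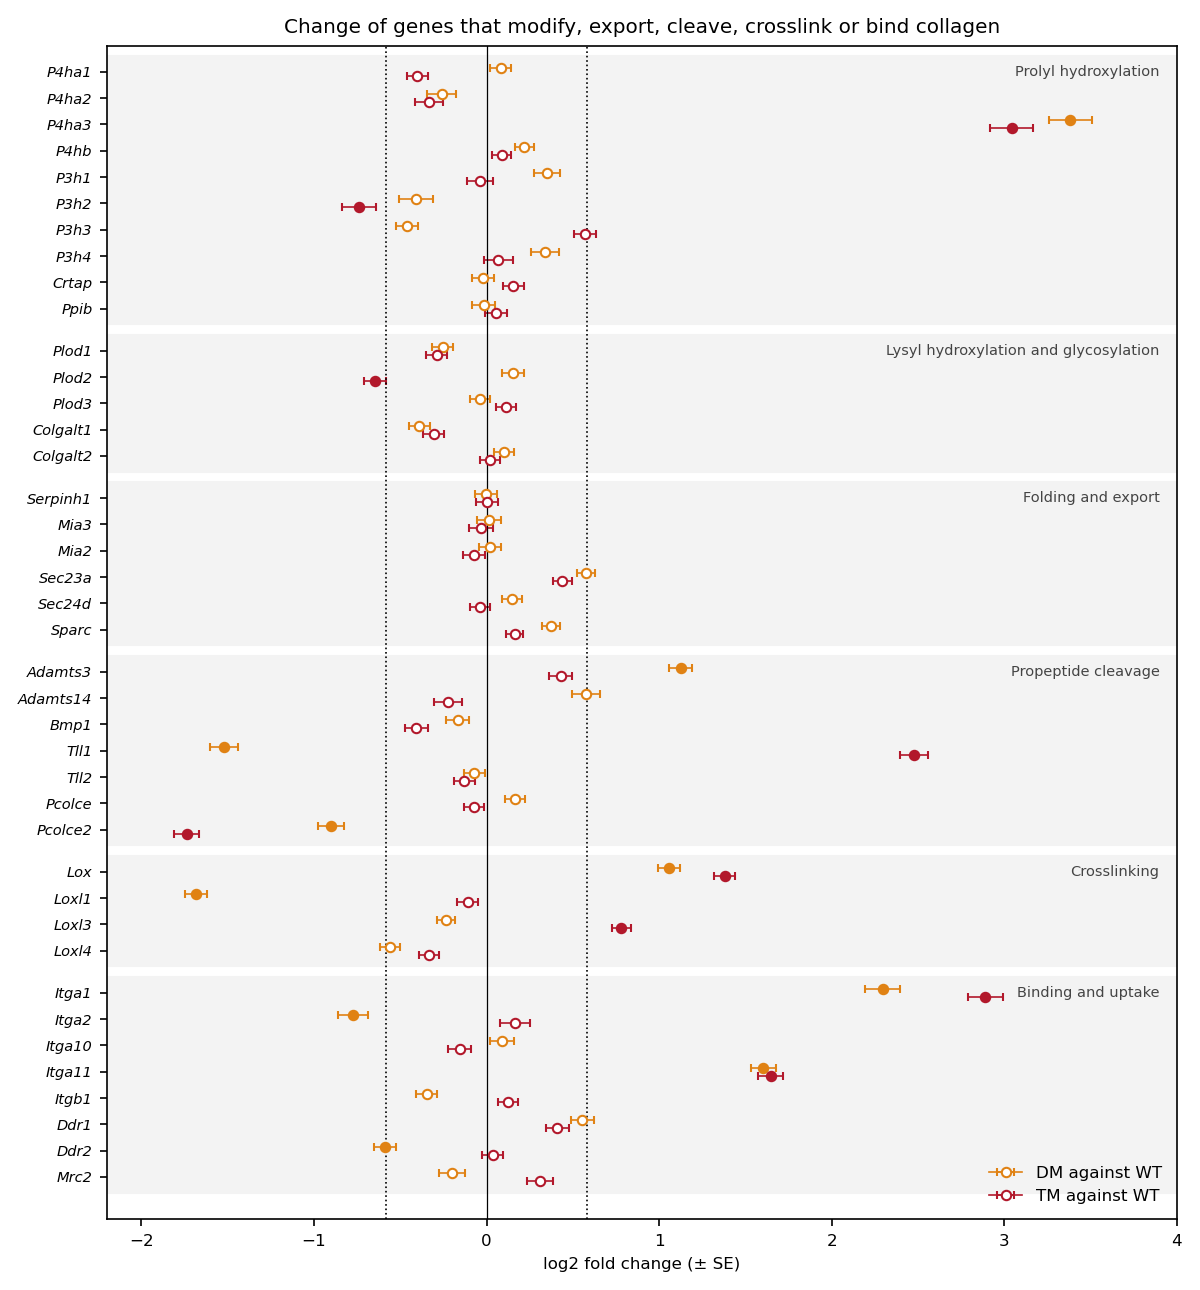
Log2 fold change against WT (x axis, ± SE from limma) of 40 genes of collagen modification, export, cleavage, crosslinking and binding (y axis, by step) in DM (orange) and TM MEFs (red), with filled points for called genes and dotted lines at 1.5-fold. P4ha3, Itga1, Itga11 and Lox lie to the right in both mutants, Tll1 lies at -1.52 in DM and 2.48 in TM MEFs, and no gene of folding and export is filled.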

How the data were processed

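Total RNA of WT, DM and TM MEFs was measured on 9 Affymetrix Gene ST 1.0 chips. The authors' deposited table holds log2 values for each probe set and array, made with RMA according to the submitters' processing notes (version not given). RMA removes background, brings all arrays to 1 distribution and combines probes, so differences in total signal were lost before deposit. PLIER values were not analysed here, and the number of arrays limits the precision.

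Of 35556 probe sets, 21789 carry a single symbol, 1621 carry several and 12146 are unnamed here. The brightest single-symbol probe set stood for each of 19938 genes. A single linear model of all arrays was fitted (limma 3.58.1, R 4.3.3; lmFit, then eBayes, 6 residual degrees of freedom), with Benjamini-Hochberg adjustment over all genes and the 1.5-fold limit of the methods. The fit was checked on simulated data. Promoter windows came from RefSeq tables of GRCm38.p6. In 754 genes, 2 of them collagen chains, the arrays of a genotype share 1 value, which understates their spread.

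The collagen chains, the synthesis genes and the marker lists were chosen with earlier results of these data known. By rule, every chain is given, with each array for those called and for the other chain of each compared pair that holds one, up to 3 called synthesis genes per step and up to 2 called markers per list; other genes named, such as Adamts14, Ddr2, Msln and those given as not called, lie outside it. Alternatives were a Student's t-test, other thresholds, fits of 6 arrays, the replicate number as a block, median centring, quantile and cyclic loess normalization, a filter on dim genes, means of probe sets, other variance models, array weights and leaving out each array.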

Additional observations from a re-analysis of the deposited data

How the results depend on the processing

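In the comparisons in which a chain was called, its change kept its sign under every alternative run. Many of these could not alter it, as other tests, thresholds, gene filters, variance models, the replicate block and probe set means leave the change as it is. The sign could move only with another scaling, with array weights or with an array left out. Without the fold limit, 10 chains were higher and 10 lower in DM than in WT MEFs, 9 and 7 in TM than in WT and 8 and 9 in TM than in DM. Over all 19938 genes these counts were 3398 and 3942, 2757 and 3581, and 3070 and 3280. With a 2-fold limit, 3 were higher in DM and 1 in TM than in WT and 1 in TM than in DM, and 0 were lower in TM than in WT MEFs by limma, whatever the p, as the lowest change was -0.84. Over all genes this limit left 527, 558 and 408 higher in these comparisons, and 223 lower in TM than in WT MEFs. Restricted to genes above the median gene, 3 were higher in DM MEFs, 1 was higher and 1 lower in TM against WT, and 1 was lower in TM than in DM. The filter took out Col4a6, Col15a1, Col10a1 and Col5a3, the 4 called chains that lie below the median gene. Over all genes it left 719 higher in DM MEFs, 704 higher and 558 lower in TM against WT, and 520 lower in TM than in DM. Median centring gave 6 lower in DM MEFs (1427 over all genes). Cyclic loess and array weights gave 1 lower in TM MEFs (599 and 714 over all genes). Leaving out each array in turn, the count of chains lower in TM than in WT ranged from 1 to 2, and it was 1 without WT replicate 2 or TM replicate 1, when Col5a3 was not called. The cause of these shifts was not tested. Scaling moved the median of all genes by under 0.1. Replicate numbers did not pair the arrays (correlations of same-number deviations -0.239 to 0.168), and a replicate block left 5 higher and 3 lower in DM, 2 and 2 in TM against WT and 4 and 2 between the mutants. Signal over background was not analysed here, and 17 of the 41 chains lie below the median gene, where a low signal limits what can be measured.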

Other observations

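The array also lists 3 further chains of type VI collagen that are not among the 41, namely Col6a4, Col6a5 and Col6a6. Over the 9 arrays Col6a4 lay between 6.90 and 7.32, Col6a5 between 7.27 and 7.60 and Col6a6 between 7.96 and 8.27. Their changes were 0.10, 0.12 and 0.0030 in DM and -0.035, -0.034 and -0.039 in TM MEFs against WT, and none was called.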
